A study of Mus musculus with 60 samples.

Results

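The clustered protocadherins are neuronal cell adhesion proteins of the cadherin superfamily. In mice their genes lie in 3 neighbouring clusters, alpha, beta and gamma. In the alpha and gamma clusters each variable exon has its own promoter and is spliced to a set of constant exons that all members of the cluster share, whereas each beta gene is a single large exon. A neuron switches on only a few of the alternate isoforms, a choice that involves promoter methylation, CTCF and cohesin, while the C-type isoforms (Pcdhac1, Pcdhac2, Pcdhgc3, Pcdhgc4 and Pcdhgc5) are chosen by other means and some are tied to a cell type or a role. The proteins on a cell's surface bind like with like, and this is known to serve self-avoidance of dendrites, tiling of axons and neuronal survival. A bulk library averages such choices over many cells.

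All protein-coding genes whose symbol is Pcdha, Pcdhac, Pcdhb, Pcdhga, Pcdhgb or Pcdhgc followed by a number were taken as members. They number 59 of the 35889 genes measured, of which 21530 are protein-coding, with 15 in the alpha, 22 in the beta and 22 in the gamma cluster. In the GRCm39 mouse genome all lie on the plus strand of chromosome 18, the alpha genes between 37063237 and 37320716, the beta genes between 37397991 and 37657532, and the gamma genes between 37794846 and 37975014. The span of the alpha cluster covers 14 genes, because the annotated Pcdha4b runs on into the gamma constant exons.

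The libraries came from Ai14xFosiCre mice of both sexes, aged 8 to 16 weeks, that had learned to self-administer intravenous cocaine and oral sucrose, went through extinction, and then sought each reward on presentation of its cue. In this line a tamoxifen-dependent Cre driven by the Fos gene switches on the red protein tdTomato, so a cell is tagged only if it had recently been active and a neuron that does not induce Fos is missed. 4 populations of neurons marked by the nuclear protein NeuN (NeuN+) were sorted from the nucleus accumbens (NAc, core by the labels) and from the medial prefrontal cortex (mPFC): the cocaine-seeking ensemble carried tdTomato, the sucrose-seeking ensemble carried cFos protein, the overlapping ensemble carried both, and the non-ensemble carried neither. Cocaine was always marked by tdTomato, tagged at the cocaine session, and sucrose by cFos protein, stained in the sorted cells of mice killed after the sucrose session, so that reward, tag and time since activity cannot be told apart. Each library held punches pooled from 3 mice, with 3 pools per sex from 9 mice, and the 4 populations and both regions of a pool came from the same mice. A further 12 libraries were labelled naive, with the same genotype and treatment label as the rest, and what sets them apart is not stated. In all there were 60 libraries in 20 groups of 3, of which 48 held sorted populations.

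Several libraries did not match what their labels say. The titles and the description lines disagreed on sex and region for the male mPFC and the female NAc, and the titles, which the series text explains, were followed. The sample characteristics also gave the sex as female for the overlapping and sucrose-seeking libraries of male mPFC pool 3, and here too the titles were followed. Among sorted libraries the Y-linked gene Ddx3y stood at 15.7 to 45.1 CPM (estimated counts scaled to a common library size) in the 24 male libraries and at 0.0675 to 2.27 CPM in 16 female libraries, but at 12.1 to 20.5 CPM in all 8 libraries of female pool 2. Eif2s3y gave the same split, at 4.93 to 13.6 CPM in female pool 2 and 0 to 1.17 CPM in the other female libraries, against 8.08 to 46.3 CPM in males. Of the other Y-linked genes checked, Kdm5d (68.1 to 230.1 CPM in female and 108 to 242 CPM in male libraries) and Uty (9.97 to 33.1 and 20.5 to 62.0 CPM) overlapped between the sexes. The cortical glutamate transporter Slc17a7 stood at 17.5 to 80.8 CPM in the female mPFC, below the 128 to 337 CPM of the female NAc, so the cortical label of the female mPFC was not borne out by this marker, while the striatal gene Ppp1r1b, at 185 to 623 CPM in the female mPFC and 606 to 1266 CPM in the female NAc, was on average lower there, in the direction of the label. In male mPFC pool 2 Slc17a7 stood at 34.0 to 40.1 CPM, against 267 to 657 CPM in male mPFC pools 1 and 3, and Ppp1r1b at 565 to 799 CPM against 77.9 to 473 CPM. Results are therefore also given without pool 2. Total estimated counts ran from 9933361 to 24500899 per sorted library and from 29238727 to 45299753 per naive library, and 57 to 59 of the members reached 1 CPM in each sorted library.

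Nearly every member was detected in these sorted libraries, and the C-type genes Pcdhgc5 and Pcdhgc3 stood far above the rest. The libraries also held astrocyte and oligodendrocyte markers, given below, so the levels cannot be assigned to neurons alone. On the TPM scale, which divides counts by transcript length, the mean over the 48 sorted libraries was 0.977 to 11.5 for alpha genes, 1.66 to 6.65 for beta genes and 9.12 to 140 for gamma genes. Pcdhgc5 averaged 140 TPM and Pcdhgc3 119 TPM, followed in the gamma cluster by the alternate gene Pcdhgb6 at 32.2 TPM, and the lowest gamma genes were Pcdhgb8 at 10.9 and Pcdhga1 at 9.12 TPM. The remaining gamma C-type gene, Pcdhgc4, whose protein is known to support the survival of interneurons, averaged 25.1 TPM. In the alpha cluster Pcdhac2, known for its part in the tiling of serotonin axons, led with 11.5 TPM, ahead of Pcdha11 at 7.67 and Pcdha4b at 7.14 TPM, while Pcdhac1 averaged 2.50 TPM and Pcdha4 and Pcdha1 were lowest at 1.37 and 0.977 TPM. The beta genes lay close together, from Pcdhb22 at 6.65, Pcdhb12 at 6.47 and Pcdhb9 at 6.43 TPM down to Pcdhb4 at 1.86 and Pcdhb21 at 1.66 TPM. Over libraries Pcdhgc5 ran from 77.6 to 311 TPM and Pcdhgc3 from 47.5 to 210.0 TPM, the latter just above the highest value of Pcdhgb6, at 45.98 TPM. All other neighbours in the order within a cluster overlapped in their ranges.

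**Figure D1:**
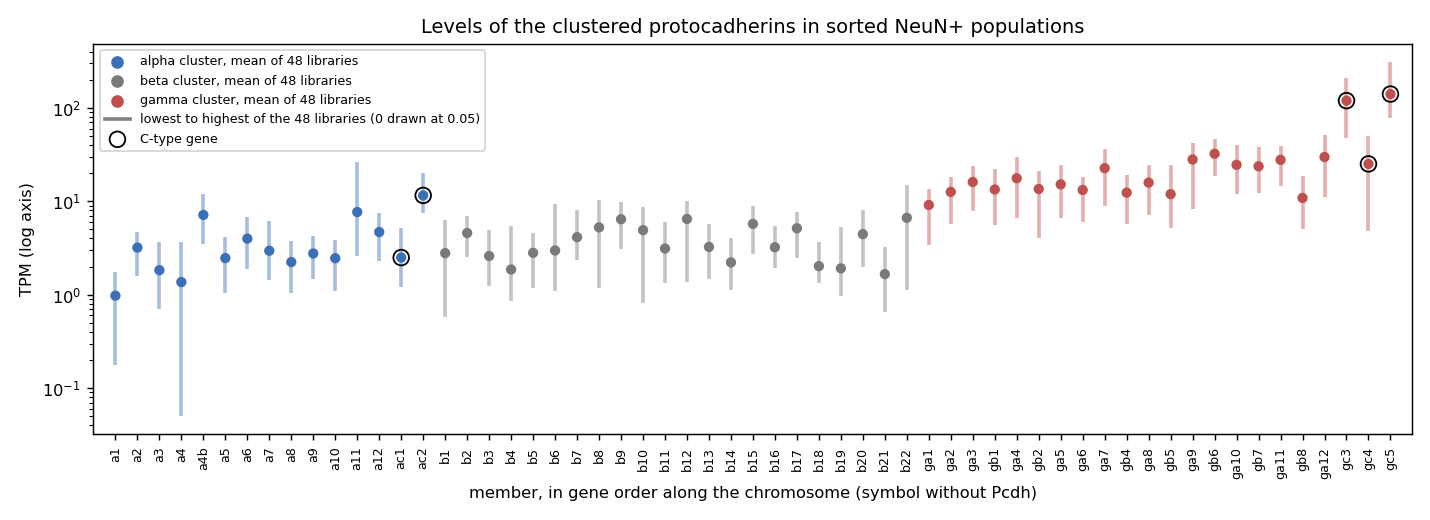
Level of each of the 59 members in TPM (log axis) in gene order, with a point for the mean of the 48 sorted libraries, a line from the lowest to the highest library and a ring around the C-type genes. By mean, Pcdhgc5 and Pcdhgc3 stand above 100 TPM, the other gamma genes between 9.12 and 32.2 TPM, and the alpha and beta genes at 11.5 TPM and below. This order rests on transcript lengths and differs in part from the order by counts.

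By counts, not divided by length, the order differed in part. Pcdhgc5 and Pcdhgc3 still led, at means of 146 and 135 CPM. Pcdhac2 followed at 53.3 CPM, above the highest alternate gamma gene, Pcdhgb6, at 50.7 CPM. Pcdhgc4, at 25.3 CPM, lay below the gamma median of 28.1 CPM, and Pcdhb14 led the beta genes at 22.6 CPM. As shares of the estimated counts, Pcdhgc5 held 16.4% and Pcdhgc3 15.2% of the gamma cluster, Pcdhgc4 2.85%, and Pcdhac2 24.7% of the alpha cluster. Summed over its members the gamma cluster came to 617 to 1074 CPM per sorted library, the alpha cluster to 160 to 265 CPM and the beta cluster to 171 to 318 CPM. Pcdha4 was the least steady member, with a coefficient of variation of 62.9% over the 48 libraries and 1 CPM reached in only 39 of them. Its main transcript shares 83.3% of its bases with other members, and that of Pcdha4b 100%, so reads may be split between them in more than 1 way. For Pcdha11, 97.6% ± 7.16 (SD, 48 libraries) of the estimated counts were given to a transcript annotated as a retained intron, which holds none of the constant exons. The main transcript of Pcdha4 is annotated as a retained intron too. That of Pcdhgb8 is annotated as protein-coding with loss of function, and that of Pcdhgb1 as lacking a defined coding sequence.

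The clusters differed in sequence and in how the deposited values were scaled. Exons shared with other members make up a median of 53.5% of the main transcript of alpha genes and 45.8% of that of gamma genes, while beta genes share none apart from 455 bases between Pcdhb21 and Pcdhb22. Of the deposited gene values, 97.9% in the alpha and 98.4% in the gamma cluster were not whole numbers (tolerance 0.01), as reads divided among transcripts give, against 53.7% of the beta gene values. The gamma transcripts are also rich in GC, at 50.9 to 55.2% (median 52.8%), against 46.5 to 50.6% in the alpha cluster without Pcdha4b and 39.1 to 49.0% in the beta cluster. The median of all 120330 protein-coding transcripts over 2000 bases is 49.5%.

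The effective length, by which a count is divided to give TPM, moved from library to library far more for gamma genes. Between the lowest and the highest sorted library it differed by a median of 3.37-fold for gamma genes, 1.38-fold for alpha genes and 1.43-fold for beta genes. For Pcdhgc5, whose annotated transcript has 4741 bases, it ran from 614 to 4275 bases, for Pcdhgc3 from 630 to 3945 bases and for Pcdhgc4 from 642 to 4481 bases. Across the 59 genes the log2 of this ratio had a Pearson correlation of 0.79 with GC content, a description only, since the genes share libraries, bases and reads. The TPM order of genes given above and any TPM comparison between libraries rest on these lengths, and comparisons below therefore use counts, with counts rescaled by length as an alternative.

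**Figure D2:**
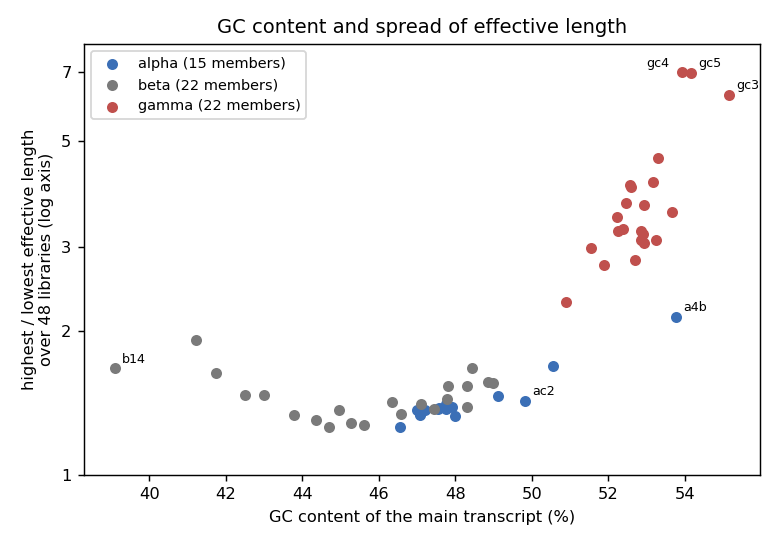
GC content of the main transcript of each member (x axis, %) against the ratio of the highest to the lowest effective length over the 48 sorted libraries (y axis, log scale), 1 point per member and a colour per cluster. The gamma genes, at 50.9 to 55.2% GC, lie at ratios of 2.30 to 6.98, and the beta genes at 1.26 to 1.92.

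The effective length also moved with the sorted population. For Pcdhgc5 it averaged 2742 ± 1334 bases (SD, n = 3 pools) in the non-ensemble and 1201 ± 424 bases in the sucrose-seeking ensemble of the female NAc. In the male NAc the values were 2500 ± 309 and 991 ± 466 bases, and in the male mPFC 2936 ± 765 and 1100 ± 338 bases. In the female mPFC both populations were low, at 794 ± 181 and 719 ± 32.1 bases. The sucrose-seeking libraries thus had the shorter effective lengths on average in all 4 sets of sex and region, without overlap in the male NAc, the male mPFC and the female NAc.

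**Figure D3:**
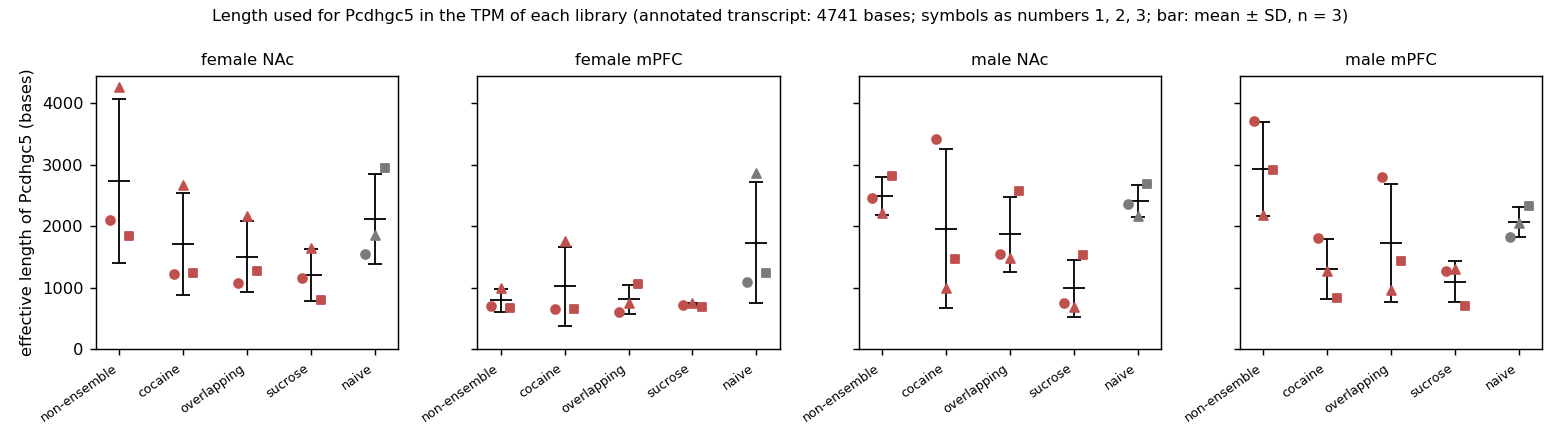
Effective length of Pcdhgc5 in bases for every library, in a panel per sex and region, by population on the x axis, with circles, triangles and squares for replicate numbers 1, 2 and 3 and bars for mean ± SD (n = 3). In the female NAc the non-ensemble libraries lie at 1847 to 4275 bases and the sucrose-seeking libraries at 800.1 to 1644 bases.

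The comparison of the sucrose-seeking ensemble with the non-ensemble asks what sets apart cells active during sucrose seeking from cells tagged at neither session. In the female NAc 3 C-type genes fell and 5 alternate genes rose in edgeR's quasi-likelihood test at a Benjamini-Hochberg adjusted p under 0.05. These 8 are 13.6% of the members, beside 15.9% of all genes tested, so the members changed no more often than other genes. Of all genes, 5.78% rose and 10.1% fell. With the pool as a block 11 members were called, beside 26.4% of all genes. Without pool 2 there were 4, namely Pcdha11, Pcdha8, Pcdhgc5 and Pcdhgc3, beside 16%, and without pool 1 there were 3 (Pcdha11, Pcdhgc5 and Pcdhgc3), beside 6.93%. With a single library left out the count was 0 without sucrose-seeking pool 3 (1.63% of all genes called), 2 without sucrose-seeking pool 1 (3.38%), 3 without non-ensemble pool 2 (5.88%), 4 without sucrose-seeking pool 2 (16.7%) and 5 without non-ensemble pool 3 (6.87%).

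Pcdhgc5 fell by 0.63 on the log2 scale (SE 0.13, adjusted p = 0.00705). Its levels in female NAc pools 1, 2 and 3 were 188, 226 and 202 CPM in the non-ensemble and 145, 139 and 128 CPM in the sucrose-seeking ensemble. Every sucrose-seeking library was below every non-ensemble library. The cocaine-seeking libraries, at 191, 206 and 161 CPM, and the overlapping libraries, at 157, 186 and 164 CPM, lay above the sucrose-seeking ones.

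Pcdhgc3 fell by 0.56 (SE 0.13, adjusted p = 0.0111), from 141, 162 and 180 CPM to 106, 120 and 114 CPM. Pcdhac2 fell by 0.50 (SE 0.16, adjusted p = 0.0408), from 62.2, 86.3 and 73.6 CPM to 51.4, 55.1 and 55.8 CPM. For neither gene did the groups overlap, but the call of Pcdhac2 was lost without pool 2, where its difference was -0.38 (adjusted p = 0.105). The other gamma C-type gene went the other way, with Pcdhgc4 at 16.3, 15.99 and 17.9 CPM in the non-ensemble and 20.7, 25.0 and 29.0 CPM in the sucrose-seeking ensemble, a difference of 0.52 (SE 0.18) that did not pass the test (adjusted p = 0.064) but did with the pool as a block (0.51, adjusted p = 0.0207). Pcdhac1 likewise stood 0.76 higher without a call (adjusted p = 0.0717) and was called with the block (0.79, adjusted p = 0.0256).

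Among alternate genes Pcdha11 rose most, by 1.18 (SE 0.27, adjusted p = 0.0101), from 16.6, 7.91 and 8.43 CPM to 25.3, 22.5 and 30.3 CPM. Pcdha8 rose by 0.87 (SE 0.26, adjusted p = 0.0322), from 7.18, 5.12 and 7.42 CPM to 11.7, 11.2 and 14.5 CPM. In both genes every sucrose-seeking library was above every non-ensemble library. The counts of Pcdha11 are mostly those of its retained-intron transcript, as given above. Pcdhgb4 rose by 0.66 (SE 0.17, adjusted p = 0.018), from 15.9, 17.0 and 20.4 CPM to 27.5, 31.7 and 27.9 CPM, again without overlap. Pcdhgb8 rose by 0.78 (adjusted p = 0.0206) and Pcdhga9 by 0.55 (adjusted p = 0.0452). No beta gene was called, and their differences ran from -0.28 to 0.54.

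In the male NAc the same C-type genes Pcdhgc5 and Pcdhgc3 fell, and no other member was called. That is 3.39% of the members, beside 9.39% of all genes tested, of which 2.83% rose and 6.56% fell. Pcdhgc5 fell by 0.72 (SE 0.15, adjusted p = 0.0159), from 203, 165 and 219 CPM to 115, 115 and 137 CPM. Pcdhgc3 fell by 0.64 (SE 0.16, adjusted p = 0.0256), from 179, 163 and 182 CPM to 103, 112 and 129 CPM. The groups did not overlap for either gene. Pcdhac2 differed by -0.62 (adjusted p = 0.0548) and Pcdhgb4 by 0.69 (adjusted p = 0.0503), both just short of a call, and both were called with the pool as a block (-0.59, adjusted p = 0.0144, and 0.67, adjusted p = 0.0227), where 5 members were called beside 19.1% of all genes. Without pool 2 no member was called, with Pcdhgc5 at -0.74 (adjusted p = 0.347), in a comparison of 2 libraries with 2 in which 0.00398% of all genes were called, and none was called without pool 1, beside 0.00394%. With a single library left out, the count was 0 without sucrose-seeking pool 2 or non-ensemble pool 3 (0.0% of all genes each) and 1 without non-ensemble pool 1, sucrose-seeking pool 1 or non-ensemble pool 2 (3.78%, 2.95% and 2.43%).

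In the mPFC the calls were few. In the female mPFC no member was called by edgeR, beside 0.025% of all genes, although 12 members had an unadjusted p under 0.05, and DESeq2 called 4 (3.9% of all genes) and limma-voom 1 (0.0929%). With the pool as a block 10 members were called there, beside 13.8% of all genes, among them Pcdhgc5 (-0.39, adjusted p = 0.0228), Pcdha11 (0.98, adjusted p = 0.000167) and Pcdhgb4 (0.63, adjusted p = 0.00719). Female mPFC levels of Pcdhgc5 were 129, 132 and 111 CPM in the non-ensemble and 81.3, 102 and 93.1 CPM in the sucrose-seeking ensemble, which do not overlap.

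In the male mPFC the only member called was Pcdha4, beside 0.205% of all genes (0.193% higher, 0.0118% lower), with 0.288, 0.400 and 0.585 CPM in the non-ensemble and 4.77, 1.74 and 2.61 CPM in the sucrose-seeking ensemble (log2 difference 2.87, adjusted p = 0.0495). Summed with Pcdha4b, whose sequence it shares, the levels were 7.21, 9.34 and 18.8 CPM and 15.4, 13.4 and 14.0 CPM, which overlap. The main transcript of Pcdha4 is a retained intron, as given above. Leaving out any 1 of the 3 non-ensemble libraries, or sucrose-seeking pool 1 or 2, lost the call. With the pool as a block 9 members were called beside 17.2% of all genes, among them Pcdhgc5 (-0.56, adjusted p = 0.00309) and Pcdhac2 (-0.52, adjusted p = 0.0163). Male mPFC levels of Pcdhgc5 were 172, 168 and 179 CPM against 115, 129 and 109 CPM, without overlap, and the difference without the block was -0.56 (adjusted p = 0.0816).

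With both sexes of a region fitted together, a choice made after seeing the data, 10 members were called in the NAc, beside 30.7% of all genes, and 11 in the mPFC, beside 15.3%. There Pcdhgc5 fell by 0.66 in the NAc (adjusted p = 1.12e-05) and by 0.46 in the mPFC (adjusted p = 0.00488). Pcdhac2 fell by 0.55 (adjusted p = 0.0013) and by 0.32 (adjusted p = 0.0359). Pcdhgb4 rose by 0.69 in the NAc (adjusted p = 0.000506) and by 0.54 in the mPFC (adjusted p = 0.00497). A test of whether the sucrose-seeking difference itself differed between the sexes called 0 members in either region, with 2 members at an unadjusted p under 0.05 in the NAc and 3 in the mPFC. Of all genes it called 0.0% in either region.

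The make-up of the gamma cluster shifted together with these genes. Pcdhgc3 and Pcdhgc5 together held 37.4% ± 0.970 (SD, n = 3) of the gamma counts in the non-ensemble of the female NAc and 26.6% ± 1.36 in the sucrose-seeking ensemble. The shares were 33.4% ± 0.679 and 25.4% ± 1.42 in the female mPFC, 38.2% ± 3.30 and 26.7% ± 1.77 in the male NAc, and 34.7% ± 2.51 and 27.6% ± 2.62 in the male mPFC. The groups did not overlap in any of these 4 sets. The cocaine-seeking ensemble lay between them on average, at 35.3%, 29.4%, 33.8% and 32.7% in the same order, as did the overlapping ensemble, at 35.4%, 29.1%, 31.3% and 31.8%. Because these shares hold genes that the comparison above already tested, they are given as a description.

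**Figure D4:**
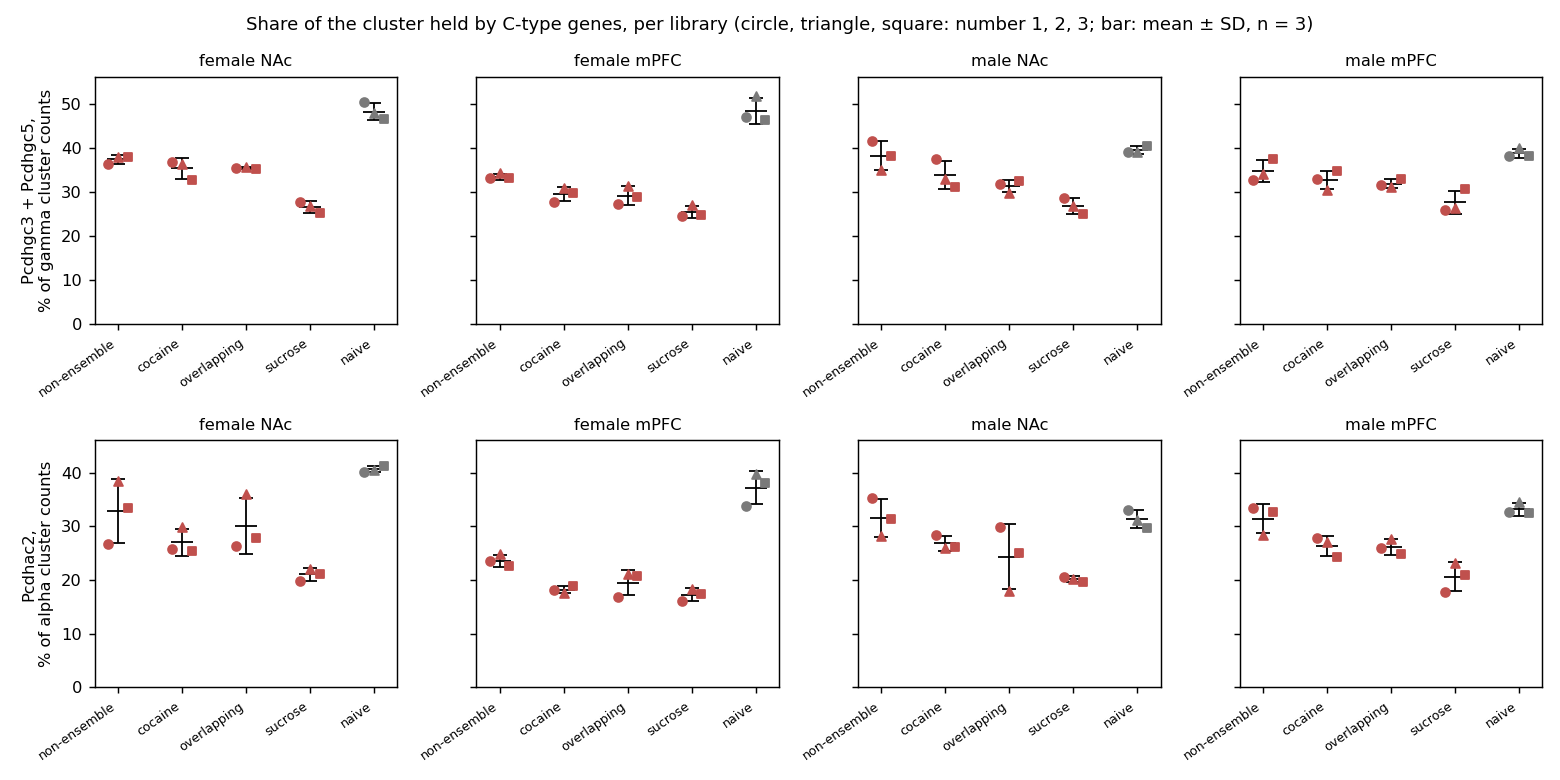
Share of the gamma counts held by Pcdhgc3 and Pcdhgc5 (upper row) and of the alpha counts held by Pcdhac2 (lower row), in %, per library and population, in a column per sex and region, with symbols for replicate numbers and bars for mean ± SD (n = 3). In every panel the sucrose-seeking libraries lie below all non-ensemble libraries, for instance at 25.1 to 27.8% against 36.2 to 37.9% for the gamma share in the female NAc.

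For Pcdhac2 the share of alpha counts was 32.8% ± 5.98 in the non-ensemble and 21.0% ± 1.15 in the sucrose-seeking ensemble of the female NAc, and 31.6% ± 3.55 and 20.2% ± 0.525 in the male NAc. It was 23.6% ± 1.13 and 17.3% ± 1.18 in the female mPFC, and 31.4% ± 2.68 and 20.6% ± 2.72 in the male mPFC. Here too no sucrose-seeking library reached any non-ensemble library of its set. The summed level of the whole gamma cluster overlapped between the populations in every set, at 979 ± 62.9 and 944 ± 34.8 CPM in the female NAc. Without its C-type genes it stood at 596 ± 30.1 and 669 ± 32.1 CPM there, which did not overlap, and it overlapped in the other 3 sets.

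On the length-corrected scale the picture was partly different. In TPM the summed share of Pcdhgc3 and Pcdhgc5 still did not overlap between non-ensemble and sucrose-seeking libraries of the female NAc (41.3 to 58.0% against 30.7 to 35.9%), the female mPFC (43.3 to 47.2% against 36.3 to 39.0%) and the male NAc (41.8 to 59.8% against 29.4 to 40.3%), but it did in the male mPFC (38.0 to 47.8% against 31.7 to 42.7%). The share of Pcdhac2 in the alpha TPM overlapped in the female NAc (17.8 to 31.7% against 16.3 to 18.2%) and did not in the female mPFC (18.8 to 20.5% against 13.1 to 15.3%), the male NAc (19.0 to 26.1% against 16.5 to 17.5%) and the male mPFC (24.4 to 27.8% against 14.3 to 18.7%). With counts rescaled by effective length, Pcdhgc5 still stood lower in the female NAc (-0.68, adjusted p = 0.138) and the male NAc (-0.71, adjusted p = 0.32), without a call. Pcdhgc3 changed sign, to 0.16 in the female NAc and 0.25 in the male NAc, and Pcdha11 in the female NAc to -0.29. Pcdhgc4 rose by 1.45 in the female NAc on that scale (adjusted p = 0.0418), and Pcdhgb8 by 1.14 (adjusted p = 0.0469). These were the only 2 members called there, beside 2.59% of all genes, and 0 were called in the male NAc (0.0% of all genes), the female mPFC (0.0%) and the male mPFC (0.0238%).

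Other features of the libraries moved with the same populations. Olfactory, vomeronasal and taste receptor genes, best known from sensory cells, took 1.50% ± 0.467 of the counts in the non-ensemble and 2.95% ± 0.749 in the sucrose-seeking ensemble of the female NAc, 1.60% ± 0.268 and 3.23% ± 1.01 in the male NAc, 4.11% ± 0.970 and 5.19% ± 1.20 in the female mPFC, and 1.62% ± 0.217 and 3.01% ± 1.31 in the male mPFC. The share of counts given to pseudogenes moved likewise. In male NAc pools 1, 2 and 3 it was 4.18, 3.85 and 3.47% in the non-ensemble and 7.71, 7.23 and 4.96% in the sucrose-seeking ensemble. In the male mPFC it was 3.34, 3.41 and 4.17% and 5.13, 4.73 and 8.73%. The part of either share in the results cannot be read from these values. With the receptor share as a term in the fit, added after seeing the data, Pcdhgc5 differed by -0.42 in the female NAc (adjusted p = 0.0501) and by -0.52 in the male NAc (adjusted p = 0.172). Only Pcdhgb8 was then called in the female NAc (1.13), beside 2.27% of all genes, and none in the male NAc, beside 0.0%. In the male NAc the receptor share did not overlap between these populations, so that fit can hardly separate it from population. In the female mPFC 4 members were called with that term, beside 3.75% of all genes.

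Markers of cell classes also differed. In the female NAc the summed level of 5 neuron markers ran from 4466 to 5052 CPM in the non-ensemble and from 2892 to 3566 CPM in the sucrose-seeking ensemble, that of 5 astrocyte markers from 4199 to 5287 and from 2620 to 3191 CPM, and that of 5 endothelial markers from 54.5 to 105 and from 189 to 230 CPM. Oligodendrocyte markers (2332 to 3513 against 1788 to 2762 CPM) and microglial markers (106 to 166 against 122 to 133 CPM) overlapped. The sum of 3 markers of serotonin neurons, which are known for Pcdhac2, stood at 3.77 to 8.30 and 5.08 to 6.60 CPM. In the other 3 sets, too, neuron and astrocyte markers were lower and endothelial markers higher in the sucrose-seeking ensemble, without overlap. No marker of these lists was at 0 in a whole group. The part of these markers in the results was not tested, and in bulk libraries fewer cells of a type cannot be told apart from less RNA per cell.

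Against this, the other population comparisons gave no call. In edgeR 0 of 59 members passed in the cocaine-seeking ensemble against the non-ensemble, against the sucrose-seeking and against the overlapping ensemble, and in the overlapping ensemble against the non-ensemble, in each of the 4 sets of sex and region. For cocaine-seeking against non-ensemble 0.00781% of all genes were called in the female NAc and 0.0% in the other sets. For cocaine-seeking against sucrose-seeking it was 0.363% in the female NAc, 0.0214% in the female mPFC, 0.0241% in the male NAc and 0.0118% in the male mPFC, and for cocaine-seeking against overlapping 0.0% throughout. For overlapping against non-ensemble the share was 0.0391% in the female NAc, 0.0608% in the female mPFC, 0.12% in the male NAc and 0.0% in the male mPFC. The members with an unadjusted p under 0.05 numbered 0 to 10, and 10 for cocaine-seeking against sucrose-seeking in the female NAc. There DESeq2 called 2 members (6.17% of all genes) and limma-voom 1 (1.25%), and 2 were called by edgeR without sucrose-seeking pool 2. DESeq2 also called 1 member for overlapping against non-ensemble in the male NAc (2.44%) and 1 in the male mPFC (0.279%).

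With the pool as a block, several of these comparisons did reach the threshold. In the female NAc 4 members differed between the cocaine-seeking and the sucrose-seeking ensemble, beside 12.1% of all genes. Pcdhgc3 was higher by 0.58 (adjusted p = 0.00055) and Pcdhgc5 by 0.48 (adjusted p = 0.00121) in cocaine-seeking cells. Without the block their adjusted p-values in edgeR were 0.0704 and 0.0949. In the same libraries microglial markers stood at 205 to 254 CPM in the cocaine-seeking and 122 to 133 CPM in the sucrose-seeking ensemble, endothelial markers at 81.9 to 128 and 189 to 230 CPM, and neuron markers at 3681 to 4682 and 2892 to 3566 CPM, none of which overlapped, and their part in the result was not tested. For cocaine-seeking against non-ensemble the block gave 1 member in the female NAc (Pcdhgc4, 0.71; 1.61% of all genes), 4 in the female mPFC (3.34%), among them Pcdha11 at 0.73, and 2 in the male mPFC (8.33%). For overlapping against non-ensemble it gave 2 in the female NAc (4.76%), 4 in the female mPFC (5.58%), 1 in the male NAc (Pcdhgc5, -0.49; 5.71%) and 1 in the male mPFC (Pcdha4, 3.21; 4.12%). With both sexes together, Pcdhgc3 (0.54, adjusted p = 0.00537) and Pcdhgc5 (0.45, adjusted p = 0.00662) were higher in cocaine-seeking than in sucrose-seeking NAc cells, beside 7.52% of all genes called. These comparisons share their control libraries with each other.

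Between regions the clearest difference lay in the female pools, where members were lower by counts in libraries labelled mPFC. For this the 4 sorted populations of a pool were summed, giving 3 pools per sex and region. In female pools 29 of 59 members (49.2%) were lower in the mPFC than in the NAc and 0 were higher, beside 41.9% of all genes, of which 24.1% were lower and 17.8% higher. The median member differed by -0.43 while the median of all genes differed by 0.33. By cluster 7 of 15 alpha, 9 of 22 beta and 13 of 22 gamma genes were called, with cluster medians of -0.42, -0.38 and -0.51. In this fit only 3 members, all beta genes, had a positive difference, with Pcdhb1 the highest at 0.64. The fit scaled the summed pools by their own factors, whereas CPM were scaled over all 60 libraries and were less one-sided. Mean CPM in NAc and mPFC were 4.69 and 4.88 for Pcdha1, 14.3 and 14.7 for Pcdhga1, and 23.1 and 24.6 for Pcdhgc4. The sign of small differences and the size of all of them thus depend on the scaling.

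Pcdhac2 differed most, by -1.003 (SE 0.16, adjusted p = 0.000395), with 56.6, 73.0 and 62.2 CPM in the NAc and 34.0, 36.1 and 37.5 CPM in the mPFC of female pools 1, 2 and 3. Pcdhgc5 fell by 0.88 (SE 0.16, adjusted p = 0.00128), from 170.0, 189 and 164 CPM to 94.9, 122 and 103 CPM. Both genes had every mPFC pool below every NAc pool. Among the beta genes Pcdhb20 fell by 0.83 (adjusted p = 0.0014), from 15.2, 17.4 and 16.1 CPM to 11.2, 9.12 and 10.8 CPM, and Pcdhb19 by 0.72 (adjusted p = 0.00338), from 21.9, 24.8 and 23.1 CPM to 18.1, 15.7 and 14.2 CPM, again without overlap. Pcdhb14 fell by 0.55, Pcdhga6 by 0.69, Pcdhga12 by 0.57, Pcdha6 by 0.57 and Pcdha4b by 0.49, all called.

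For the gamma cluster the direction depended on the scale. In CPM its sum was 645, 812 and 762 in the mPFC and 908, 1021 and 971 in the NAc of female pools 1, 2 and 3. In TPM, which divides by the effective lengths given above, the gamma sum was instead higher in the mPFC, at 716, 715 and 767 against 636, 539 and 652 in the NAc, without overlap, and the beta sum averaged 91.7 against 87.5, with overlap.

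Markers of several cell classes were lower in the same female mPFC libraries. Over the 12 sorted libraries of a region, medium spiny neuron markers summed to 697 to 1863 CPM in the mPFC and 2097 to 3719 CPM in the NAc, and cortical excitatory markers to 87.0 to 175 and 259 to 501 CPM, neither with overlap. The medians of neuron markers were 2196 and 3784 CPM, of astrocyte markers 2811 and 3939 CPM, and of oligodendrocyte markers 1257 and 2415 CPM. The part of these markers in the difference was not tested. Without pool 2, which carried Ddx3y and Eif2s3y, 8 members were called, beside 17.1% of all genes, with Pcdhac2 at -0.91 and Pcdhgc5 at -0.93. Leaving out single pools gave 12 to 28 calls, with 12 without mPFC pool 3 (33.1% of all genes), 13 without mPFC pool 1 (22.5%) or NAc pool 2 (22.2%), and 18 without NAc pool 3 (28.6%). In female pools 1, 2 and 3 the pseudogene share averaged 11.3, 7.68 and 8.48% in the mPFC and 5.79, 3.70 and 5.14% in the NAc, without overlap. The receptor gene share averaged 6.18, 4.05 and 4.43% in the mPFC and 2.85, 1.51 and 2.35% in the NAc of these pools, also without overlap. With the receptor share as a term 1 member (Pcdhb15) was called, beside 1.47% of all genes. Because that share did not overlap between the regions, this fit can hardly separate it from region. With length-rescaled counts 8 were called, among them Pcdhac2, beside 28.6%.

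**Figure D5:**
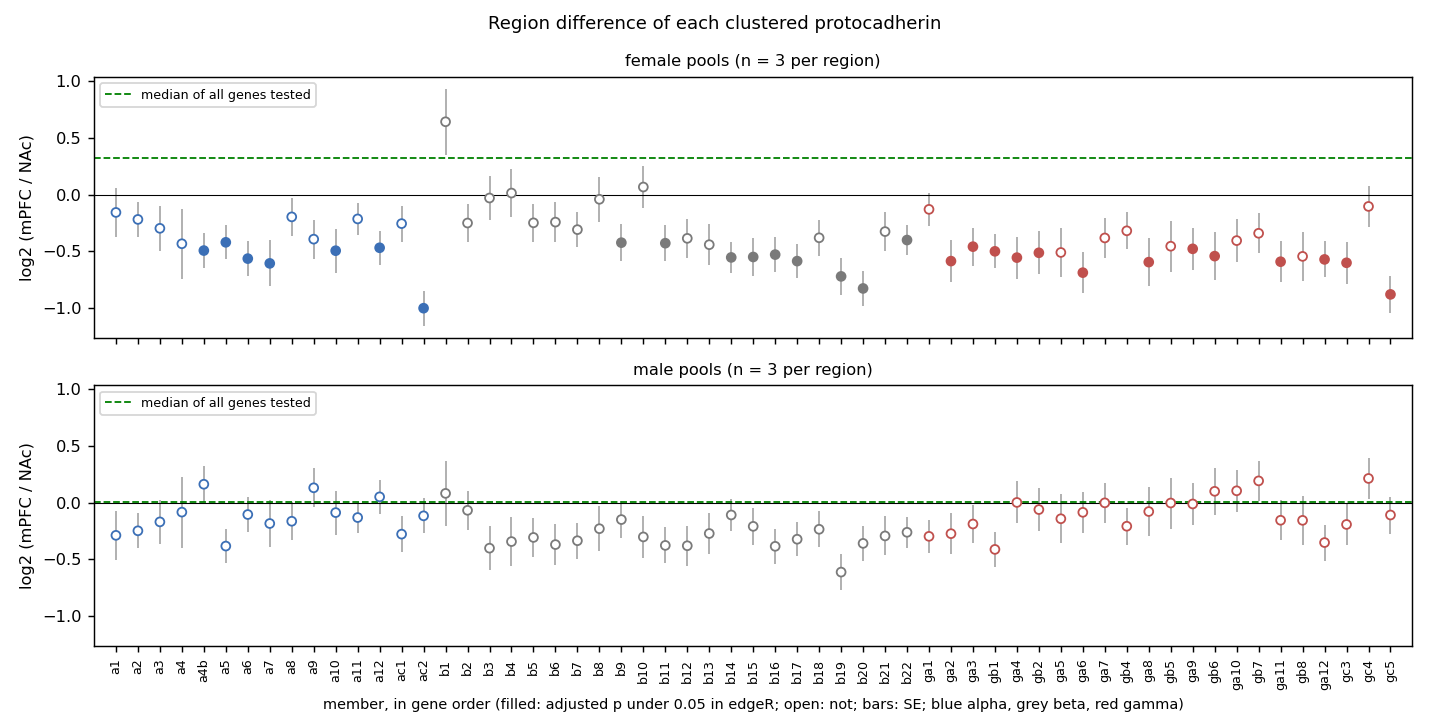
Difference between mPFC and NAc of each member (log2, points with SE bars) in female pools (upper panel) and male pools (lower panel), in gene order, filled where the adjusted p was under 0.05, with a dashed line for the median of all genes tested. In female pools 56 of 59 points lie below 0 and 29 are filled, while in male pools none is filled and the points run from -0.61 to 0.22.

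In male pools 0 members were called between the regions by edgeR, beside 1.91% of all genes, with 10 at an unadjusted p under 0.05 and 1 called by DESeq2 (2.67% of all genes). Pcdhb19 stood lowest, at -0.61 (adjusted p = 0.062), with 21.7, 22.8 and 25.6 CPM in the NAc and 13.0, 17.8 and 15.7 CPM in the mPFC. Pcdhac2 differed by -0.12 and Pcdhgc5 by -0.11. With mPFC pool 2, whose markers went against its label, left out, 1 member was called, beside 1.66% of all genes. Without pool 2 in both regions 0 were called, beside 1.02% of all genes.

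Whether the region difference itself differed between the sexes was tested by an interaction term, which called 0 members and 0.0% of all genes, although 11 members had an unadjusted p under 0.05. Pcdhac2 differed by -0.89 (adjusted p = 0.0936) and Pcdhgc5 by -0.77 (adjusted p = 0.0936). Both were called with the pool as a block (-0.88, adjusted p = 0.0458, and -0.79, adjusted p = 0.0497), beside 3.94% of all genes. DESeq2 called 5 members, beside 17.6%. In edgeR without the block, 2 members were called without female mPFC pool 2, beside 10.2% of all genes, and 4 without male mPFC pool 3, beside 17.7%.

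Between the sexes 5 members were lower in female than in male mPFC pools, beside 20.0% of all genes, of which 15.6% were lower and 4.35% higher. Pcdhac2 differed by -0.75 (SE 0.16, adjusted p = 0.0156), with 34.0, 36.1 and 37.5 CPM in female and 59.3, 53.6 and 53.4 CPM in male pools. Pcdhgc5 differed by -0.60 (SE 0.16, adjusted p = 0.0243), with 94.9, 122 and 103 CPM against 155, 148 and 142 CPM. Neither gene overlapped between the sexes. Pcdha12 (-0.54), Pcdha4b (-0.52) and Pcdhga4 (-0.56) made up the rest. Without pool 2 the count was 3 (Pcdhac2, Pcdhgc5 and Pcdhga4), beside 10.5% of all genes, and leaving out single pools gave 0 to 12, with 0 without female mPFC pool 1 (0.0% of all genes) or male mPFC pool 1 (0.00618%), 1 without female mPFC pool 3 (4.61%) or male mPFC pool 2 (6.64%), and 12 without male mPFC pool 3 (31.4%). With the receptor share as a term it was 0, beside 0.0%. That share did not overlap between female and male mPFC pools (2.06, 2.30 and 3.31% in males), so the fit can hardly separate it from sex. In the NAc 0 members differed between the sexes, beside 0.00315% of all genes, with 3 at an unadjusted p under 0.05. Sex cannot be told apart from anything else that differed between female and male pools.

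The naive libraries were deeper than the sorted ones and were not all processed alike: the male naive files give more decimals and other effective lengths than the rest. Against the non-ensemble Pcdhgc5 was called higher in all 4 sets, by 0.54 in the female NAc (adjusted p = 0.0366), 0.99 in the female mPFC (adjusted p = 0.00235), 0.44 in the male NAc (adjusted p = 0.0387) and 0.52 in the male mPFC (adjusted p = 0.0202). Its naive levels in the female NAc were 268, 331 and 391 CPM, and those in the male NAc 279.8, 252 and 267 CPM. In both regions and sexes they lay above all non-ensemble libraries. Pcdhgc3 was called higher in the female NAc (0.51, adjusted p = 0.0259) and female mPFC (0.84, adjusted p = 0.00883), and Pcdhac2 in the female mPFC (1.14, adjusted p = 0.00022). In males Pcdhgc3 was not higher. In the male NAc it stood at 136, 133 and 121 CPM in naive and 179, 163 and 182 CPM in non-ensemble libraries, every naive library below every non-ensemble one (-0.42, adjusted p = 0.0731), and in the male mPFC it differed by -0.08 (adjusted p = 0.748).

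The number of members called against the non-ensemble was 4 in the female NAc (2 higher, 2 lower) beside 8.08% of all genes (6.04% higher, 2.03% lower). It was 7 in the female mPFC (5 higher, 2 lower) beside 33.9% (24.2% higher, 9.67% lower), 3 in the male NAc (1 higher, 2 lower) beside 11.9% (5.06% higher, 6.85% lower), and 5 in the male mPFC (3 higher, 2 lower) beside 12.9% (4.11% higher, 8.78% lower). With a single library left out the count in the female NAc was 0 without non-ensemble pool 1 (2.87% of all genes) or naive library 2 (1.97%) or 3 (1.83%) and 2 without non-ensemble pool 3 (6.26%), and in the male NAc 1 without naive library 1 (5.77%) or non-ensemble pool 1 (7.22%). In the female mPFC it was 3 without non-ensemble pool 3 (25.1%) and 4 without non-ensemble pool 1 (24.1%) or naive library 2 (19.4%), and in the male mPFC 2 to 3 without any 1 library (5.82 to 11.7%). Those that fell included Pcdha7 (-1.03) and Pcdhb2 (-0.91) in the female NAc, Pcdha8 (-1.08) and Pcdha1 (-0.87) in the female mPFC, Pcdhb3 (-1.15) and Pcdha2 (-0.88) in the male NAc, and Pcdha4b (-1.31) and Pcdhga1 (-0.57) in the male mPFC. In the male mPFC Pcdha4 stood 3.88 higher, opposite to Pcdha4b, with which it shares its sequence. The rescaling by length raised the counts to 15 members in the male NAc (23.0% of all genes) and 18 in the male mPFC (25.1%). Naive, processing and depth cannot be told apart here.

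Genes known to act on or with the clustered protocadherins were described from lists chosen with earlier results known. Of 18 regulators of the clusters, 2 rose and 4 fell in sucrose-seeking against non-ensemble cells of the female NAc, and 0 rose and 2 fell in the male NAc, beside the 5.78% of all genes that rose and 10.1% that fell in the female and the 2.83% and 6.56% in the male NAc. The cohesin subunits Rad21 and Smc1a, whose ring holds the loops between enhancer and promoter, fell in both, Rad21 by 0.80 (adjusted p = 0.00895) and 0.66 (adjusted p = 0.0193), and Smc1a by 0.62 (adjusted p = 0.00802) and 0.54 (adjusted p = 0.0422). Of 19 partners and signalling genes, 10 fell in the female and 7 in the male NAc and 0 rose. They included Marcks, which binds actin at the membrane (-0.87 and -0.65), Wasf1 of the WAVE complex that clustered protocadherins can recruit (-0.70, female) and the GTPase Rac1 (-0.82, male).

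Of 19 other protocadherins and large cadherins, 2 rose and 3 fell in sucrose-seeking against non-ensemble cells of the female NAc. In the male NAc 1 rose and 3 fell. These stand beside the shares of all genes given for the regulators. Celsr2, an atypical cadherin, fell by 0.79 in the female and by 0.69 in the male NAc, Pcdh8 by 0.80 in the male NAc, and Pcdh15, best known from hair cells of the ear, rose by 0.84 in the female NAc. For sucrose-seeking against non-ensemble no gene of the 3 lists was called in either mPFC, beside 0.025% of all genes in the female and 0.205% in the male mPFC. In female pools 14 regulators, 15 partners and 10 other protocadherins were lower in the mPFC than in the NAc, with Cyfip2 at -1.26, Pcdh9 at -1.20 and Smc1a at -0.73, and 1, 0 and 2 were higher, beside 24.1% of all genes lower and 17.8% higher. In male pools 0 regulators and 0 partners differed between the regions, and among other protocadherins 1 was higher and 2 were lower, Fat1 (-0.73) and Fat4 (-0.64), beside 1.91% of all genes called in either direction.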

How the data were processed

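RNA of 60 libraries was measured by low-input, ribosomal RNA depleted, paired-end sequencing. The authors trimmed reads with cutadapt and quantified transcripts with Salmon against a GRCm39 transcriptome, and the deposited files give, per transcript, estimated counts and TPM with an effective length. No version of these tools was stated, and the submitters' processing notes also name FastQC and DESeq2. Of 117209 transcripts, 116085 matched the annotation and were summed to 35889 genes. The other 1124 held 2.23 to 7.10% of the counts of sorted libraries and were left out.

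Gene sums of the estimated counts were rounded and tested in edgeR 4.0.16 (quasi-likelihood, TMM, filterByExpr by group, Benjamini-Hochberg over all genes tested, adjusted p under 0.05), in R 4.3.3, with all 4 populations of a sex and region in 1 fit. Region and sex were tested on counts summed per pool. CPM use totals scaled by TMM over all 60 libraries. Each fit has its own TMM factors, so CPM and fitted differences need not match. TMM centres the bulk of reads, not the median gene: sucrose-seeking against non-ensemble moved the median of all genes by 0.16 in the female NAc, 0.0996 in the male NAc, 0.0968 in the male mPFC and 0.0156 in the female mPFC. Replicates are pools of 3 mice per the labels. Alternatives were DESeq2 1.42.0, limma 3.58.1 (voom), other size factors, no filter, the thresholds of the study (adjusted p 0.01, log2 difference 0.75), length-rescaled counts, a replicate block and libraries left out. The fits were also run on simulated counts with known changes. Those counts were drawn independently, with no pool effect and no reads shared between transcripts, so they cannot speak to these features of the data. Both regions and all populations of a number came from the same mice by the study's methods. Deviations from group means correlated on average by 0.149, 0.177, 0.101 and 0.158 within a number (female NAc, female mPFC, male NAc, male mPFC) and by -0.0502 to -0.0885 between numbers. The lowest single correlation within a number was -0.00891, in the male NAc. Because each group of 3 was centred on its own mean, the values between numbers largely follow from those within. They are therefore no separate support for pairing.

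Named were the C-type genes, the 3 highest and 2 lowest members per cluster by TPM, up to 3 called members per cluster and comparison by adjusted p, and up to 2 genes per other list and comparison. Members and lists were chosen with earlier results of these data known, and further names for their values. Depth differs between sorted and naive libraries, and intervals for counting error do not apply to reads divided between transcripts.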

Additional observations from a re-analysis of the deposited data

Results flagged for a closer look

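With the pool as a block, the difference between mPFC and NAc itself differed between female and male pools for Pcdhac2 (female minus male -0.88 on the log2 scale, adjusted p = 0.0458) and for Pcdhgc5 (-0.79, adjusted p = 0.0497) in edgeR, which flagged both for a closer look. Beside these 2 members 3.94% of all genes were called, and without the block neither passed (adjusted p = 0.0936 each).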

How the results depend on the processing

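Over the headline counts of members called, 353 alternative values were rated the same and 118 moved. Many headline counts were 0 in comparisons where almost no gene was called, so a count that stayed the same there says little. The counts above 0 varied more, as the ranges below show. Over the named members, 378 of the alternative values kept direction and side of the threshold, 207 kept direction but lost the call, 6 moved and 4 reversed. The 4 reversals all came with counts rescaled by effective length: Pcdha11 to -0.29 and Pcdhgc3 to 0.16 in the female NAc and Pcdhgc3 to 0.25 in the male NAc for sucrose-seeking against non-ensemble, and Pcdhgc3 to -0.027 for naive against non-ensemble in the female mPFC. That rescaling also gave, for sucrose-seeking against non-ensemble, 2 members in the female NAc, 0 in the male NAc and 0 in the male mPFC. For naive against non-ensemble it gave 2 in the female NAc (9.52% of all genes), 4 in the female mPFC (24.8%), 15 in the male NAc and 18 in the male mPFC, with 8 for the female region difference and 1 for sex in the mPFC (10.6%).

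With the replicate block, by which same-numbered pools are paired, the counts were 1, 4 and 2 in the female NAc (cocaine-seeking against non-ensemble, cocaine-seeking against sucrose-seeking, overlapping against non-ensemble), 4, 10 and 4 in the female mPFC (cocaine-seeking, sucrose-seeking and overlapping, each against non-ensemble), 5 and 1 in the male NAc (sucrose-seeking, overlapping) and 2, 9 and 1 in the male mPFC (cocaine-seeking, sucrose-seeking, overlapping). It gave 6 for naive in the male NAc (14.2% of all genes), where only the number is shared, and 2 for the region difference between the sexes. The block moved no other count of calls by over 1.5 times. No paired analysis was possible for female against male because numbers pair pools within a sex only.

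DESeq2 called 2 for cocaine-seeking against sucrose-seeking in the female NAc, 4 for sucrose-seeking against non-ensemble in the female mPFC and 5 each in the male NAc (14.2% of all genes) and male mPFC (7.53%), 1 each for overlapping against non-ensemble in the male NAc and male mPFC, 8 for naive in the male NAc (16.6%), 1 for region in male pools, 8 for sex in the mPFC (26.8%) and 5 for the region difference between the sexes. limma-voom called 1 for cocaine-seeking against sucrose-seeking in the female NAc, 1 and 0 for sucrose-seeking against non-ensemble in the female and male mPFC (0.0929% and 0.598% of all genes), and 6 for naive in the male NAc (14.7%). With DESeq2's size factors in edgeR, Pcdha4 was lost in the male mPFC (0 called). The thresholds of the study left 0 members for sucrose-seeking against non-ensemble in the female NAc, male NAc and male mPFC, beside 2.78%, 0.0% and 0.0% of all genes. They left 0, 3, 1 and 2 for naive (female NAc, female mPFC, male NAc, male mPFC), beside 1.24%, 19.1%, 4.83% and 5.32%, 3 for the female region difference, beside 14.4%, and 0 for sex in the mPFC, beside 0.00629%.

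Chosen after seeing the data, the receptor share as a term gave 2 and 1 in the female NAc (cocaine-seeking against sucrose-seeking, sucrose-seeking against non-ensemble), 1, 4 and 1 in the female mPFC (cocaine-seeking, sucrose-seeking, overlapping, each against non-ensemble), 0 for sucrose-seeking in the male NAc and male mPFC, 1 for region in each sex and 0 for sex in the mPFC. Both sexes together gave 2, 10 and 1 in the NAc (cocaine-seeking against sucrose-seeking, sucrose-seeking and overlapping against non-ensemble) and 1, 11 and 1 in the mPFC (cocaine-seeking, sucrose-seeking, overlapping, each against non-ensemble). For sucrose-seeking against non-ensemble, leaving out pool 1 gave 3, 0 and 0, and leaving out pool 2 gave 4, 0 and 0 (female NAc, male NAc, male mPFC), with 8 for the female region difference and 3 for sex in the mPFC.

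Leaving out 1 library each gave 0 to 2 members for cocaine-seeking against sucrose-seeking in the female NAc, 0 to 11, 0 to 2 and 0 to 1 for sucrose-seeking against non-ensemble (female NAc, male NAc, male mPFC), and 0 to 5, 3 to 6, 1 to 4 and 2 to 3 for naive. The range was 12 to 28 for region in female pools, 0 to 1 in male pools, 0 to 12 for sex in the mPFC and 0 to 4 for the region difference between the sexes. In the same order of comparisons the share of all genes called ran from 0.0 to 4.16%, 1.63 to 19.4%, 0.0 to 12.1%, 0.0 to 0.708%, 1.83 to 11%, 19.4 to 35.8%, 5.75 to 10.8%, 5.82 to 11.7%, 22.2 to 42.3%, 0.926 to 2.05%, 0.0 to 31.4% and 0.0 to 17.7%. The cause of these changes was not tested. With 3 pools per group, reads divided among transcripts that share exons, and effective lengths that vary most for GC-rich gamma transcripts, a difference between gamma genes rests on the estimated assignment.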
